A study of Sus scrofa with 4 samples.

Results

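Heat shock proteins and related chaperones were examined in sorted pig epidermal cells. The 10 genes, taken by name from the 29837 named genes of the count table, were HSPA8, HSPA5, HSPH1, DNAJB1, HSP90AA1, HSP90AB1, HSP90B1, HSPB1, HSPB8 and HSPD1. All 10 passed the filter on low counts, with between 3430 and 41979 counts in a library. The epidermal cells came from 2 juvenile pigs, 88R and 95R, of the LGR5-H2B-GFP model, in which a histone H2B-GFP reporter sits in exon 1 of one LGR5 allele. Cells with bright GFP (LGR5-high) and cells without GFP (LGR5-negative) were sorted from each pig, so that each population had 2 libraries. Every animal of the model descends from edited clonal fibroblast lines, and how pigs 88R and 95R were related is not given in the sources used here.

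Chaperones bind unfolded or partly folded proteins and help them to reach or keep their shape. HSP70 proteins work in cycles of ATP use that J-domain proteins start and nucleotide exchange factors reset, HSP90 proteins take over clients such as kinases and receptors, and small heat shock proteins hold unfolded proteins without using ATP. Many of these genes are induced by heat and other stress through the transcription factor HSF1, while the chaperones of the endoplasmic reticulum (ER) answer to the unfolded protein response. In epidermis, chaperones also accompany the building of keratin filaments and cornification.

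The libraries held between 30696803 and 32463362 counts on named genes. LGR5, by whose reporter the cells had been sorted, had 132 and 188 CPM (counts relative to the normalized library size) in LGR5-high and 1.26 and 3.61 CPM in the LGR5-negative cells. KRT5, a keratin of basal keratinocytes, was high in every library, with between 23664 and 29558 CPM. Of 6 listed markers of basal and outer root sheath keratinocytes, 4 were in the table, without KRT14 and KRT17. ITGB4 was called lower in LGR5-high (log2 fold change -0.38). KRT5 (-0.18), KRT15 (0.76) and TP63 (-0.17) were not called. The markers of suprabasal keratinocytes differed between the populations, with a summed level of 6647 and 6059 CPM in the LGR5-high and 66566 and 57474 CPM in the LGR5-negative cells, and 6 of 7 were called lower. The markers of immune cells (4 of 7 called lower, CD3E and CD3D at 3 counts or fewer in every library), melanocytes (4 of 5) and endothelial cells (3 of 4) were lower as well, at sums between 4.71 and 36.7 CPM in the LGR5-high and between 17.1 and 233 CPM in the LGR5-negative cells. The summed muscle markers lay between 3.97 and 14.7 CPM, with 3 of 5 called higher. Of 6 fibroblast markers 4 were called lower, PDGFRA, LUM, COL3A1 and DCN, and COL1A1 was called higher, while their sum overlapped, at 232 and 449 CPM in the LGR5-high and 346 and 225 CPM in the LGR5-negative cells. In bulk libraries, fewer cells of a type and less RNA per cell cannot be told apart.

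The question was how the chaperones of LGR5-high cells compare with those of LGR5-negative cells. Cells with low GFP, which the paper sorted as a population of their own, had no library here. Of the 10 genes, 2 rose and 5 fell in LGR5-high (adjusted p-value below 0.05), and 3 did not pass. Among all 15980 tested genes, 22.7% were called higher, 22.0% were called lower and 44.7% were called in either direction. In the fit that blocks on the pig, 2 rose and 6 fell, beside 28.5% and 27.2% of all tested genes and 55.7% in either direction. The small heat shock protein gene HSPB1 and the ER chaperone gene HSP90B1 rose, and HSPB8, DNAJB1, HSPA5, HSP90AA1 and HSPH1 fell. The largest mean difference was 2.07-fold (HSPB1), and all 10 genes moved the same way in both pigs. How many of all tested genes did so was not counted, so this is not read as particular to the 10 genes. The 2 libraries of LGR5-high did not overlap with those of LGR5-negative for 9 of the 10 genes, HSP90AB1 being the exception, while 76.6% of all tested genes did not overlap. The median log2 fold change of the 10 genes was -0.34, beside 0.02 for all tested genes. Together the 10 genes held 0.546% and 0.616% of the named counts in LGR5-high and 0.572% and 0.566% in LGR5-negative, which overlapped. On the TMM scale their summed level was 5037 and 5724 CPM in LGR5-high and 6221 and 6076 CPM in LGR5-negative, lower in LGR5-high without overlap, so the comparison of the sum moved with the scaling.

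**Figure D1:**
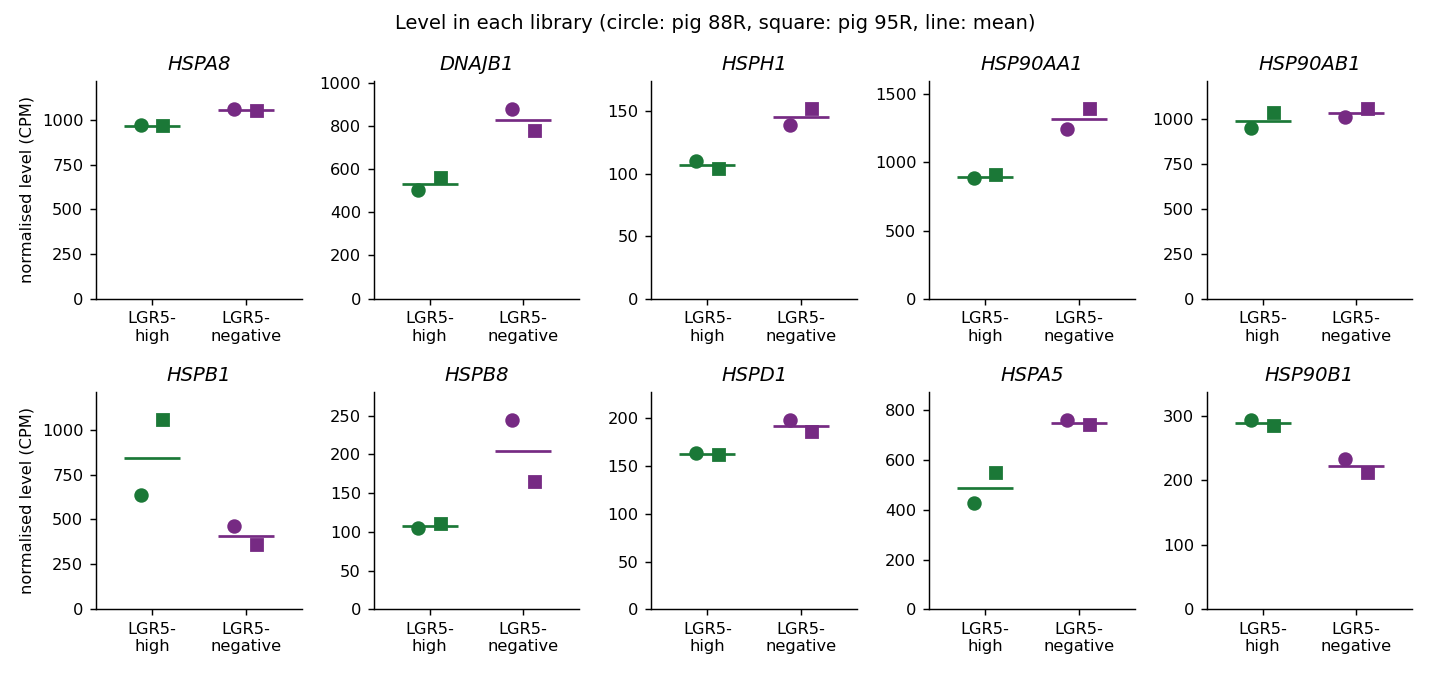
Level of each of the 10 chaperone genes in the 4 libraries, in CPM after TMM normalization on linear axes that start at 0. Green marks LGR5-high, purple marks LGR5-negative, circles are pig 88R, squares are pig 95R and lines are means of 2 libraries. HSPB1 and HSP90B1 lie higher in LGR5-high, and the LGR5-high points of HSPB1 are far apart, at 635 and 1052 CPM.

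The cytosolic HSP70 machine was read from HSPA8, DNAJB1 and HSPH1. HSPA8 encodes HSC70, the HSP70 that cells make without stress. Its level was 969.4 and 968.5 CPM in the LGR5-high and 1059 and 1052 CPM in the LGR5-negative cells, for pigs 88R and 95R. The populations did not overlap, but the difference was small. On the log2 scale HSPA8 differed by -0.12 (standard error, SE, 0.0784, 95% interval -0.32 to 0.07, adjusted p = 0.248), and it turned to 0.10 when libraries were scaled by size alone. Over 14 alternatives its adjusted p-value lay between 0.0450 and 0.801, and 1 of them, the test of each gene alone on log2 CPM, called HSPA8 lower.

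DNAJB1 encodes an HSP40 cochaperone that brings clients to HSP70 and triggers its ATP use. Its level was 503 and 557 CPM in the LGR5-high and 876 and 776 CPM in the LGR5-negative cells, in the order of pigs 88R and 95R. Both LGR5-negative libraries stood above both LGR5-high libraries. DNAJB1 had a log2 fold change of -0.64 (SE 0.102, adjusted p = 0.00465), which is 1.56-fold lower in LGR5-high, at -0.80 for pig 88R and -0.48 for pig 95R.

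HSPH1 encodes HSP110, a large relative of HSP70 that resets it by nucleotide exchange. It had 109.9 and 104 CPM in the LGR5-high and 139 and 151 CPM in the LGR5-negative cells, and the populations did not overlap. For HSPH1 the log2 fold change came to -0.44 (SE 0.0843, adjusted p = 0.00873), at -0.34 for pig 88R and -0.54 for pig 95R. Without the LGR5-high library of pig 95R the adjusted p-value of HSPH1 was 0.0597, and with library size only it was 0.0886, in a range of 5.91e-04 to 0.0914 over 14 alternatives.

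HSP90AA1 and HSP90AB1 encode the cytosolic HSP90 pair, of which the first is the stress-inducible form and the second the constitutive form. HSP90AA1 had 882 and 906 CPM in the LGR5-high and 1242 and 1389 CPM in the LGR5-negative cells. The gap between populations was wider than the gap between pigs. HSP90AA1 thus had a log2 fold change of -0.56 (SE 0.0930, adjusted p = 0.00548), or 1.47-fold lower in LGR5-high, at -0.49 for pig 88R and -0.62 for pig 95R.

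HSP90AB1 had 948 and 1032 CPM in the LGR5-high and 1009 and 1053 CPM in the LGR5-negative cells, and the populations overlapped. On the log2 scale HSP90AB1 differed by -0.06 (SE 0.0881, 95% interval -0.28 to 0.16, adjusted p = 0.621), and its sign changed to 0.04 with upper quartile scaling and 0.16 with library size only. The ratio of the 2 genes' counts within a library does not depend on the scaling between libraries. HSP90AA1 over HSP90AB1 gave 0.931 and 0.878 in LGR5-high and 1.23 and 1.32 in LGR5-negative, without overlap. For 2 libraries against 2, the two-sided p-value of an exact permutation test on such a ratio cannot go below 0.333, so ratios are given without a test.

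The small heat shock proteins went in opposite directions. HSPB1 encodes HSP27, a holdase that also binds actin and keratin filaments and is plentiful in epidermis. It had 635 and 1052 CPM in the LGR5-high and 461 and 356 CPM in the LGR5-negative cells, from 21830, 34765, 13138 and 10743 counts. Both LGR5-high libraries were above both LGR5-negative libraries, and the spread between the LGR5-high libraries was the widest among the 10 genes, with a mean of 844 ± 295 CPM (SD, n = 2 pigs). HSPB1 rose by 1.05 on the log2 scale (SE 0.255, adjusted p = 0.0202), at 0.46 for pig 88R and 1.57 for pig 95R. Without the LGR5-high library of pig 95R it was 0.64, and the adjusted p-value of 0.0624 no longer passed. The adjusted p-value of HSPB1 lay between 4.92e-05 and 0.225 over 14 alternatives, and it was 0.127 in DESeq2 with the pig as a replicate block.

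HSPB8 encodes HSP22, which works with the cochaperone BAG3 and HSP70 in chaperone-assisted autophagy. It had 105 and 110.5 CPM in the LGR5-high and 244 and 164 CPM in the LGR5-negative cells. The LGR5-high libraries were close together and the LGR5-negative libraries were not, the one of pig 88R being the higher. The log2 fold change of HSPB8 was -0.92 (SE 0.186, adjusted p = 0.0106), or 1.89-fold lower in LGR5-high, at -1.21 for pig 88R and -0.57 for pig 95R. Without the LGR5-high library of pig 88R or of pig 95R the adjusted p-value was 0.0565 or 0.0570, in a range of 2.29e-08 to 0.176 over 14 alternatives. The ratio of HSPB1 to HSPB8 counts was 6.03 and 9.52 in LGR5-high and 1.89 and 2.16 in LGR5-negative. Markers of suprabasal keratinocytes were lower in LGR5-high beside these changes, at the sums given above, and their part in the values of HSPB1 and HSPB8 was not tested.

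HSPD1 encodes HSP60, the chaperonin of the mitochondrial matrix. It had 164 and 162 CPM in the LGR5-high and 198 and 186 CPM in the LGR5-negative cells, and the libraries did not overlap. HSPD1 had a log2 fold change of -0.24 (SE 0.0778, 95% interval -0.43 to -0.04, adjusted p = 0.0529), just short of the threshold. HSPD1 passed, at an adjusted p-value of 0.0323, once the pig entered as a replicate block in edgeR, but not with that block in DESeq2 (0.0860), and over 14 alternatives it lay between 0.0323 and 0.907. HSPE1, which encodes the HSP10 lid of the HSP60 barrel and neighbours HSPD1 in the pig RefSeq annotation (Sscrofa11.1), had 108 and 115 CPM in the LGR5-high and 78.6 and 81.3 CPM in the LGR5-negative cells. HSPE1 rose, with a log2 fold change of 0.48 (SE 0.0796, adjusted p = 0.00512). The ratio of HSPD1 to HSPE1 counts was 1.51 and 1.40 in LGR5-high and 2.52 and 2.28 in LGR5-negative.

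The ER chaperones HSPA5 and HSP90B1 also went in opposite directions. HSPA5 encodes BiP (GRP78), the HSP70 of the ER and a sensor of the unfolded protein response. It had 427 and 548 CPM in the LGR5-high and 759 and 738 CPM in the LGR5-negative cells, and the populations did not overlap. HSPA5 had a log2 fold change of -0.62 (SE 0.132, adjusted p = 0.0129), at -0.83 for pig 88R and -0.43 for pig 95R. HSP90B1 encodes GRP94, the HSP90 of the ER, whose clients include integrins and Toll-like receptors. It had 293 and 285 CPM in the LGR5-high and 233 and 212 CPM in the LGR5-negative cells, higher in LGR5-high in both pigs. The log2 fold change of HSP90B1 was 0.38 (SE 0.0846, adjusted p = 0.0152), or 1.30-fold. This call was lost without either LGR5-high library or without the LGR5-negative library of pig 95R, at adjusted p-values of 0.0895 (without pig 88R), 0.0660 (without pig 95R) and 0.0682, in a range of 0.00151 to 0.104 over 14 alternatives. The ratio of HSPA5 to HSP90B1 counts was 1.46 and 1.93 in LGR5-high and 3.26 and 3.49 in LGR5-negative.

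**Figure D2:**
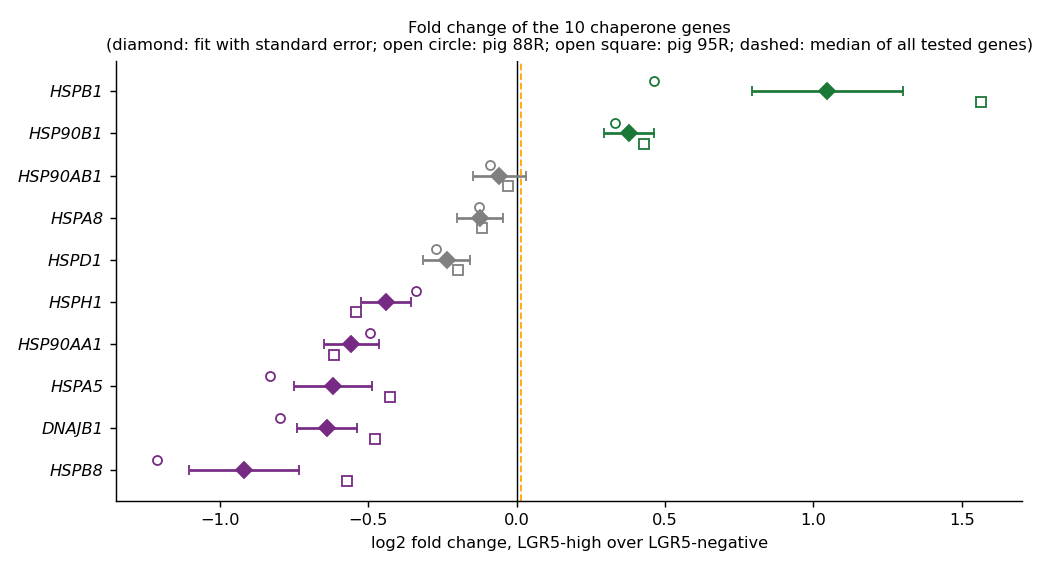
Log2 fold change of LGR5-high over LGR5-negative for the 10 genes. Diamonds with bars are the fitted values and their standard errors, open circles and squares are pigs 88R and 95R, colours mark genes called higher (green), called lower (purple) or not called (grey), and the dashed line is the median of all tested genes. The values run from -0.92 for HSPB8 to 1.05 for HSPB1, whose 2 pigs lie farthest apart.

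**Figure D3:**
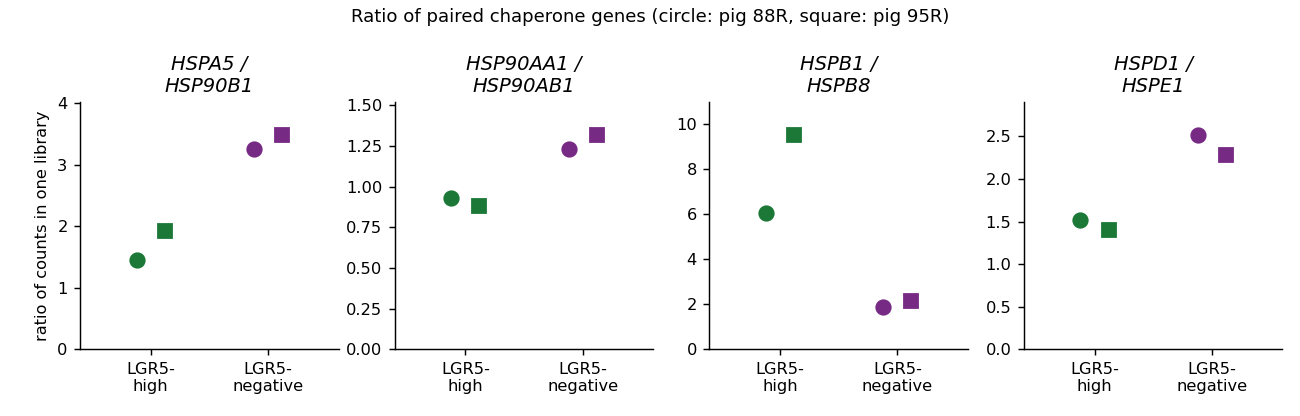
Ratio of the counts of 2 chaperone genes within each library, on linear axes that start at 0, for LGR5-high (green) and LGR5-negative (purple), with circles for pig 88R and squares for pig 95R. In all 4 pairs the populations do not overlap, and the ratio is higher in LGR5-high for HSPB1 over HSPB8 and lower for the other pairs. The ratios use the same counts as the single-gene results and add no independent evidence. A share of non-overlapping ratios over all gene pairs was not counted.

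The rest of the chaperone network was read from 9 lists with 143 further genes in the table, of which 137 were tested. Among these, 19 rose and 28 fell, and 90 did not pass, with a median log2 fold change of -0.08. Of all 15980 tested genes, 22.7% were called higher and 22.0% lower, which is also the background for each list below. With library size only, 40 were higher and 20 lower, and with upper quartile scaling 26 and 24, so the balance of directions moved with the scaling. For all tested genes the counts were 5473 and 2326 with library size only, and 4292 and 2929 with upper quartile scaling. The median of all tested genes moved from 0.02 to 0.24 with library size only and to 0.11 with upper quartile scaling.

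Of the 12 further HSP70 and HSP110 genes, 4 rose and 3 fell, or 2 and 2 without either library of pig 95R and 3 and 2 without either library of pig 88R. HSPA2, an HSP70 best known from testis, had 84.7 and 93.7 CPM in the LGR5-high and 317 and 388 CPM in the LGR5-negative cells, with a log2 fold change of -1.98 (SE 0.125, adjusted p = 1.98e-04). HSPA4L, an HSP110 relative, had 207 and 183 CPM in the LGR5-high and 63.0 and 69.3 CPM in the LGR5-negative cells, with a log2 fold change of 1.56 (SE 0.0999, adjusted p = 2.07e-04). These differences were larger than any among the 10 genes. The classic stress-inducible HSP70s HSPA1A and HSPA1B are synonyms of the single entry HSP70.2 in the RefSeq annotation, which had 589 and 665 CPM in the LGR5-high and 495 and 477 CPM in the LGR5-negative cells. The log2 fold change of HSP70.2 was 0.37 (adjusted p = 0.0230, but 0.129 and 0.0690 without the LGR5-high or the LGR5-negative library of pig 95R, and 0.00261 to 0.134 over 14 alternatives), while the inducible HSPA6 had -0.76 (adjusted p = 0.0137). HSPA12A, at 27, 26, 8 and 9 counts, rose by 1.43 on the log2 scale, and this call was lost without any one of the 4 libraries (adjusted p-values from 0.108 to 0.157) and in DESeq2, over a range of 0.0173 to 0.348. The LGR5-negative counts of HSPA12A were under the filter minimum of 10, so this gene was tested only because of its LGR5-high counts. It is counted among the 4 that rose. HSP70 genes are close copies of each other in places, and how reads shared between them were assigned is not given in the sources used here.

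Of 8 genes listed as small heat shock proteins beyond HSPB1 and HSPB8, 4 had too few counts. The 4 tested rose, as HSPB1 did and unlike HSPB8, which fell. They were CRYAB, HSPB6, HSPB2 (adjusted p = 0.0456) and HSPB11, which was listed by its gene name alone. CRYAB, the alpha-B crystallin, had 12.5 and 14.3 CPM in the LGR5-high and 2.84 and 3.61 CPM in the LGR5-negative cells (log2 fold change 2.05, adjusted p = 7.64e-04). HSPB6 had a log2 fold change of 1.12 (adjusted p = 0.00349). No tested gene of the list was lower at an unadjusted p-value under 0.05, and DESeq2 called 3 higher and 0 lower. Only 2 of the 4 were called without the LGR5-high library of pig 88R, 3 without that of pig 95R and 2 without the LGR5-negative library of pig 95R. The summed muscle markers, which small heat shock proteins such as CRYAB and HSPB6 accompany in muscle, were higher in LGR5-high at 14.2 and 14.7 CPM against 3.97 and 5.26 CPM, with DES at 3 counts or fewer in every library, and their part was not tested.

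Among the cochaperones of HSP90 and HSP70, 1 of 21 rose and 4 fell, or 2 and 6 with the pig as a replicate block. With library size only 6 were higher and 3 lower, and with upper quartile scaling 3 and 4. BAG3, the partner of HSPB8, had 120.1 and 113 CPM in the LGR5-high and 447 and 405 CPM in the LGR5-negative cells. BAG3 fell by 1.87 on the log2 scale (SE 0.0909, adjusted p = 1.02e-04), and the call held in each of the 14 alternatives. BAG5 had a log2 fold change of -0.66 (adjusted p = 0.00245) and FKBP4, an HSP90 cochaperone of steroid receptors, one of 0.35 (adjusted p = 0.0355). The call of FKBP4 was lost without either library of pig 88R (0.0672 for LGR5-high and 0.148 for LGR5-negative) or the LGR5-high library of pig 95R (0.155), over a range of 0.00287 to 0.187. The median of the list was -0.13, and 0.09 with library size only.

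Of 36 J-domain proteins other than DNAJB1, 5 rose and 9 fell, with a median log2 fold change of -0.14. With library size only 9 were higher and 6 lower, and the median was 0.08. DNAJB4, a cytosolic relative of DNAJB1, had 77.4 and 84.8 CPM in the LGR5-high and 428 and 510.3 CPM in the LGR5-negative cells. Its log2 fold change of -2.53 (SE 0.118, adjusted p = 9.27e-05) was the lowest in the 9 lists. DNAJA4 had a log2 fold change of -1.39 (adjusted p = 0.00109). DNAJC18 went the other way, with 23.5 and 20.4 CPM in the LGR5-high cells, 6.35 and 6.12 CPM in the LGR5-negative cells and a log2 fold change of 1.82 (adjusted p = 3.99e-04), as did the mitochondrial import factor DNAJC19 with 0.77 (adjusted p = 0.0111). The call of DNAJC19 was lost without the LGR5-high library of pig 88R or 95R (0.0511 and 0.0559), over a range of 8.34e-05 to 0.130. Without those same libraries, 1 of the 36 genes rose and 6 or 5 fell. Without the LGR5-negative library of pig 88R or 95R, 3 or 2 rose and 7 or 9 fell.

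In the mitochondrial list, 2 of 12 genes rose (HSPE1 and the protease HTRA2, at log2 fold changes of 0.48 and 0.58) and 1 fell (HSPA9, or mortalin, at -0.26), or 4 and 0 with library size only. HSPA9 lost its call without any one of the 4 libraries, at adjusted p-values from 0.0621 to 0.154, in a range of 0.0181 to 0.699. HTRA2 lost it without the LGR5-high library of pig 88R or 95R (0.0586 and 0.0765), in a range of 0.00122 to 0.0765. The cytosolic chaperonin CCT and prefoldin, which fold actin and tubulin, moved little. Only CCT3 of 14 rose (log2 fold change 0.38, adjusted p = 0.0178) and 0 fell by edgeR and by DESeq2, 3 and 1 had an unadjusted p-value under 0.05, and 3 and 0 passed with the replicate block. With library size only 7 of the 14 rose. CCT3 was no longer called without either library of pig 88R (0.0535 for LGR5-high and 0.0831 for LGR5-negative) or the LGR5-high library of pig 95R (0.0889), in a range of 0.00165 to 0.122.

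Among the 24 other ER chaperones and folding enzymes, 2 rose and 5 fell, or 3 and 8 with the replicate block. With library size only the balance turned, at 5 higher and 2 lower, and the median of -0.14 became 0.08. SERPINH1 encodes HSP47, the ER chaperone of collagens. It had 141 and 168 CPM in the LGR5-high and 83.3 and 81.9 CPM in the LGR5-negative cells, with a log2 fold change of 0.90 (SE 0.105, adjusted p = 0.00147). DNAJB11, an ER cochaperone of BiP, had 0.34 (adjusted p = 0.0356), a call that was lost without any one of the 4 libraries (0.0967 to 0.156, in a range of 0.00596 to 0.156 over all alternatives). The count of falling genes was 2 without the LGR5-high library of pig 88R or of pig 95R, and 1 rose in each case. Without the LGR5-negative library of pig 88R, 1 rose and 4 fell. The disulfide isomerase PDIA5 and the oxidase ERO1A fell by 1.05 and 0.72 on the log2 scale.

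Of 19 regulators and targets of the unfolded protein response, 0 rose and 9 fell by edgeR, 0 and 10 by DESeq2, and 12 fell with the replicate block. At an unadjusted p-value under 0.05 these counts were 0 and 11, and leaving out each library left 8 or 9 falling genes. ERN1 encodes IRE1, the ER stress sensor that splices the XBP1 message. It had 19.2 and 18.1 CPM in the LGR5-high and 92.2 and 76.6 CPM in the LGR5-negative cells, with a log2 fold change of -2.18 (SE 0.123, adjusted p = 1.54e-04). HERPUD1, an ER-associated degradation factor and ER stress target, had 63.2 and 64.8 CPM in the LGR5-high and 255 and 182 CPM in the LGR5-negative cells, with a log2 fold change of -1.77 (adjusted p = 6.81e-04). The median of the list was -0.38, and -0.16 with library size only, where 1 was higher and 7 were lower. The summed markers of suprabasal keratinocytes, immune cells and melanocytes were lower in LGR5-high too. Their part in these values, or in those of BAG3 and DNAJB4, was not tested.

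HSF1 itself, the activator of heat shock genes, had 48.0 and 43.4 CPM in the LGR5-high and 54.5 and 49.1 CPM in the LGR5-negative cells, with a log2 fold change of -0.18 (SE 0.104, adjusted p = 0.209) and 0.04 with library size only. Of the 3 heat shock factor genes tested, HSBP1, which encodes an HSF1-binding protein, rose by 0.34 on the log2 scale (adjusted p = 0.0390), a call lost without any one of the 4 libraries (0.0564 to 0.187, in a range of 0.00626 to 0.187 over all alternatives). Cells were released from skin with dispase, warm for a short time or cold overnight, and then trypsin, and which of these was used for each pig is not given in the sources used here. The summed level of 10 immediate-early genes, which cell dissociation is known to induce, was 15380 and 19732 CPM in the LGR5-high and 21122 and 27045 CPM in the LGR5-negative cells, with 1 called higher and 4 called lower. Within each pig this sum was lower in LGR5-high, as the levels of DNAJB1, HSP90AA1, HSPH1, HSPA6, BAG3 and DNAJB4 were. HSP70.2, HSPB1 and HSPE1 went the other way and were higher in LGR5-high in both pigs. The genes named here are examples, so how many stand on each side carries no weight. The part of cell dissociation in any of these values was not tested.

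**Figure D4:**
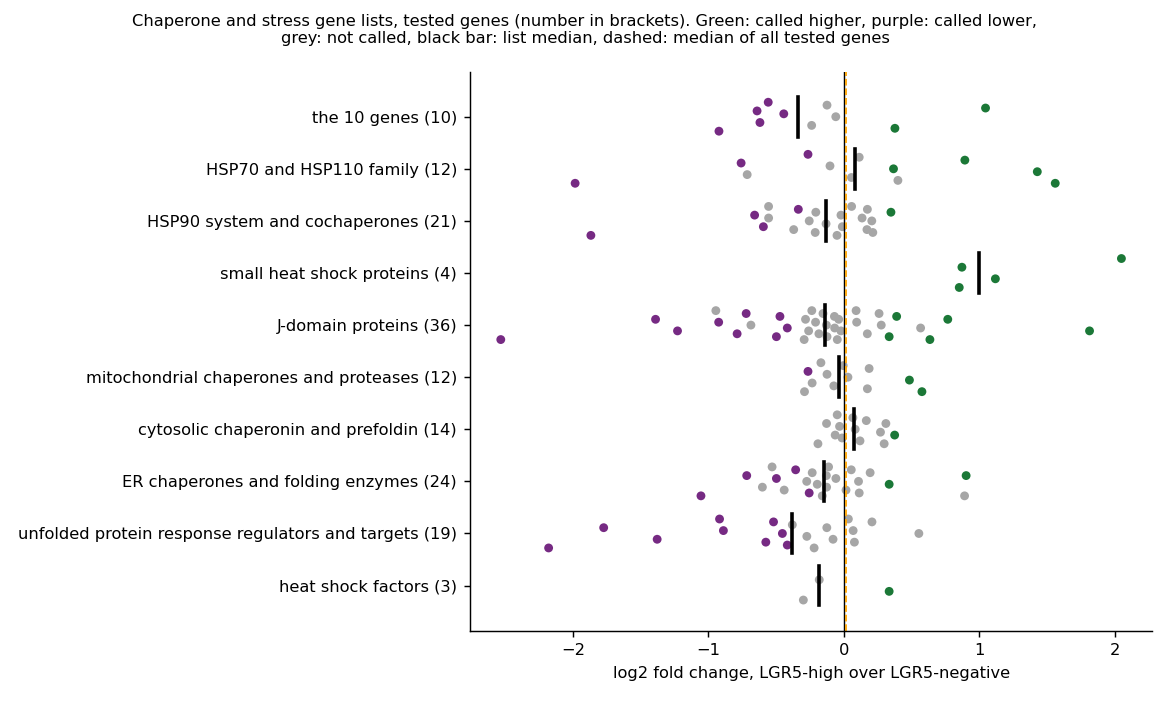
Log2 fold change of LGR5-high over LGR5-negative for each tested gene of the 10 chaperone genes and of the 9 other lists, with the number of tested genes in brackets. Points are genes (green called higher, purple called lower, grey not called), black bars are list medians, the dashed line is the median of all tested genes, and a gene can stand in more than 1 list. The row of genes listed as small heat shock proteins leaves out HSPB1 and HSPB8, and its 4 points, with HSPB11 among them, lie to the right of 0. HSPB8 lies to the left among the 10 genes. The unfolded protein response genes that were called, 9 of 19, all lie to the left.

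By the root mean square difference of log2 CPM, centred on each gene's mean over the 4 libraries, the genes most like HSPB1 among all tested genes were LOC100517422, MIR9788-1 and COX7A1, at 0.0797, 0.0904 and 0.0944. Those most like HSPB8 were TIGD4, LOC102161858 and MEI1, at 0.0550, 0.0557 and 0.0632. None of these 6 genes had more than 280 counts in a library, and with 4 libraries many genes share such a pattern.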

How the data were processed

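RNA of sorted LGR5-high and LGR5-negative epidermal cells of 2 pigs was sequenced by the authors after poly(A) selection. The deposited raw counts per gene symbol carry no normalization. The submitters' processing notes name Trimmomatic 0.36, STAR 2.5.2b, featureCounts and Subread 1.5.2. The genome build and strand setting are not given in the sources used here. Between 0.360% and 0.626% of a library's counts fell on a row with a blank gene name, which no test used.

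In R 4.3.3, edgeR 4.0.16 kept 15980 genes by filterByExpr (minimum count 10, minimum total 15), scaled libraries by TMM and compared the populations by its quasi-likelihood test, with Benjamini-Hochberg adjustment over all tested genes. Unless another tool is named, adjusted p-values come from this test. Intervals are at 95%. The p-values rest on the spread between the 2 libraries of each population, moderated by the test with information shared across the tested genes. Population was the only term, so the main test did not use the pairing by pig. Fold changes of single pigs used a prior count of 2. Exon lengths were not used here, so levels of different genes are not compared. At a floor of 3 counts a gene had between 0.0873 and 0.105 CPM, which covers counting error only.

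Both populations came from the same animals, and a correlation of 0.370 was found between the deviations of a pig's libraries from their population means. This pairing entered as a replicate block in an alternative. Others were DESeq2 size factors, upper quartile or no scaling beyond library size instead of TMM, 2 other count filters, DESeq2 1.42.0 with and without the block, limma-voom (limma 3.58.1), Student's t, the test the study names, here on each gene alone on log2 CPM with a pseudocount of 1, and leaving out each library. Fits were also run on simulated data without pairing by pig, and no result here rests on that run. Of 147 gene symbols in the 9 lists, 144 matched a row, 2 of them by a RefSeq synonym. The 10 genes and the lists were chosen with earlier results of these data known. Named from each list are up to 2 called genes with the largest rise and 2 with the largest fall, and also HSF1, HSPA1A, HSPA1B, HSPE1 and BAG3. Plots used matplotlib 3.10.9.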

Additional observations from a re-analysis of the deposited data

How the results depend on the processing

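Over the 14 alternatives, the 10 genes gave 140 fold changes, of which 137 kept their direction and 119 also their side of the threshold. The exceptions in direction were HSPA8 with library size only (0.10) and HSP90AB1 with upper quartile scaling (0.037) and library size only (0.16), and none of these 3 values was called. With the pig as a replicate block, 2 of the 10 genes were higher and 6 lower, against 2 and 5 without it, and the only call among the 10 that changed was that of HSPD1. DESeq2 with the replicate block called 1 of the 10 higher. Student's t on log2 CPM called 0 higher and 1 lower (HSPA8), with 1 and 5 at an unadjusted p-value under 0.05, and edgeR and DESeq2 called 2 higher and 5 lower. By that test 1 and 6 of the further chaperone genes and 544 and 502 of all genes passed, for which the cause was not tested. Scaling by library size only gave 5473 of all genes higher and 2326 lower against 3632 and 3508, and 40 further chaperone genes higher against 19. Leaving out each library in turn gave between 2279 and 3169 higher and between 2139 and 3004 lower genes among all, between 0 and 2 higher and between 3 and 5 lower among the 10, and between 8 and 13 higher and between 20 and 27 lower among the further chaperone genes. The lowest counts came without the LGR5-high library of pig 95R, where edgeR called 0 of the 10 higher, with 2 at an unadjusted p-value under 0.05. HSP90AB1, despite its high counts, was called in 0 of the 14 alternatives. The 95% interval of its log2 fold change, -0.28 to 0.16, held values of both signs.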
